A study of Homo sapiens with 2 samples.

Results

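PHF5A and the 6 other subunits of SF3b were followed in a colorectal cancer cell line, HCT116, with and without siRNA against PHF5A. The 7 genes (PHF5A, SF3B1, SF3B2, SF3B3, SF3B4, SF3B5 and SF3B6) were taken by symbol from a table of 50867 gene rows, and each symbol had 1 row. The control group was transfected with a control siRNA and the knockdown group with a PHF5A siRNA. Both are otherwise the same cell line, and total RNA was sequenced. Each group had 1 library, so differences below have no replicate check and carry no test across samples. With a single knockdown library, loss of PHF5A and any other effect of the siRNA cannot be told apart, and in bulk RNA fewer cells and less RNA per cell cannot be told apart either.

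SF3b is a protein complex of the U2 small nuclear ribonucleoprotein (snRNP), which recognises the branch point of an intron before splicing starts. SF3B1 forms a ring of HEAT repeats around the branch point helix, and PHF5A, a small zinc-binding protein, sits against it beside the pocket that holds the branch point adenosine. SF3B3 is a large beta-propeller scaffold, SF3B5 is a small protein held within that scaffold, SF3B2 and SF3B4 bind each other and contact RNA near the branch point, and SF3B6 (p14) contacts the branch region. SF3b also serves the minor spliceosome, and SF3B3 and SF3B5 occur in the SAGA transcription coactivator as well.

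Count totals were 26552789 for the control library and 25897412 for the knockdown library. The control library also carried heart muscle transcripts: all 14 markers on a heart list were present at 2.98 to 68.0 FPKM (fragments per kilobase of gene length, relative to the total of the library), with 98259 counts in sum or 0.370% of the library, against 341 counts or 0.00132% in the knockdown library, where 5 of the 14 were at 0. Summed over the list, that is 303 FPKM against 3.44 FPKM. In the control and knockdown libraries, 6 fibroblast markers summed to 2785 and 875 counts and 6 blood markers to 534 and 373. The fibroblast genes differed among themselves. COL3A1 had 959 and 31 counts, COL1A2 352 and 7, and LUM 60 and 0. COL1A1 had 1362 and 786, PDGFRB 44 and 42, and DCN 8 and 9. Most blood marker counts were from CD68, with 518 and 361. Of 10 colorectal epithelial markers, 8 reached 1 FPKM, with KRT8, KRT18 and KRT19 the most abundant, while the intestinal genes VIL1 and CEACAM5 had 0 counts in the control and 1 and 6 in the knockdown library. Abundant small RNAs (7SL, 7SK, RPPH1 and RMRP, with related rows) took 17.5% of the control library and 26.2% of the knockdown library, and they are part of the totals that scale FPKM. The part of these differences in the SF3b values was not tested. Ratios between 2 subunits do not depend on the totals, but that concerns the scaling alone and not the source of the heart transcripts.

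PHF5A (ENSG00000100410) lies on the minus strand of chromosome 22, 41459717 to 41468725 (GRCh38), with 4 exons in its longest coding transcript. Its counts were 367 with the control siRNA and 91 with the PHF5A siRNA, which is 9.07 and 2.31 FPKM. Scaled to the library totals (CPM), the knockdown library kept 25.4% of the control level, with a 95% exact interval of 20.0% to 32.1%. On the log2 scale with 1 added to each FPKM the ratio was -1.61. That places PHF5A at rank 122 from the bottom among the 8957 expressed genes, those that reached 1 FPKM in either library, where 1.35% of genes had a lower ratio and the median was -0.15. At least 2-fold lower on this scale were 6.20% of those genes, and PHF5A was the targeted gene among them, so its call checks the label and nothing more. The genes ranked below PHF5A included heart markers such as ACTC1 (-6.10) and MYH7 (-5.98), though not MYL2 or TNNI3. The intervals cover counting error only, since 1 library per group gives no spread between samples. They also treat reads as independent molecules, which reads are not, so they may be too narrow.

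A processed pseudogene, PHF5CP on chromosome 19, copies the PHF5A coding sequence, and reads from either could be assigned to the other. Over 330 aligned positions the reference transcripts of GENCODE release 29 were 93.6% identical. The row of PHF5CP had 12 counts with the control siRNA and 0 with the PHF5A siRNA. Together with PHF5A the counts were 379 and 91, which is 4.06-fold lower (interval 3.22 to 5.16), against 3.93-fold (3.12 to 5.0) for PHF5A alone. The pseudogene row was therefore a small part of the locus pair in both libraries and did not change the size of the PHF5A difference beyond counting error.

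None of the 6 other subunits reached a 2-fold difference, a size met by 8.73% of the expressed genes. On the deposited scale 6 of 6 had a log2 ratio above 0, beside 38.0% of the expressed genes. Counting intervals of the CPM ratio lay above 1 for 6 and below 1 for 0 of them, beside 28.4% and 50.7% of the expressed genes. Their median log2 ratio was 0.26 beside -0.15 for the expressed genes, and 6 of 6 lay above that median, as 50.0% of genes do. The direction from 0 depends on the scaling, and SF3B1, SF3B2, SF3B3 and SF3B4 lay below 0 after TPM rescaling, which sets both libraries to an equal sum over genes.

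**Figure D1:**
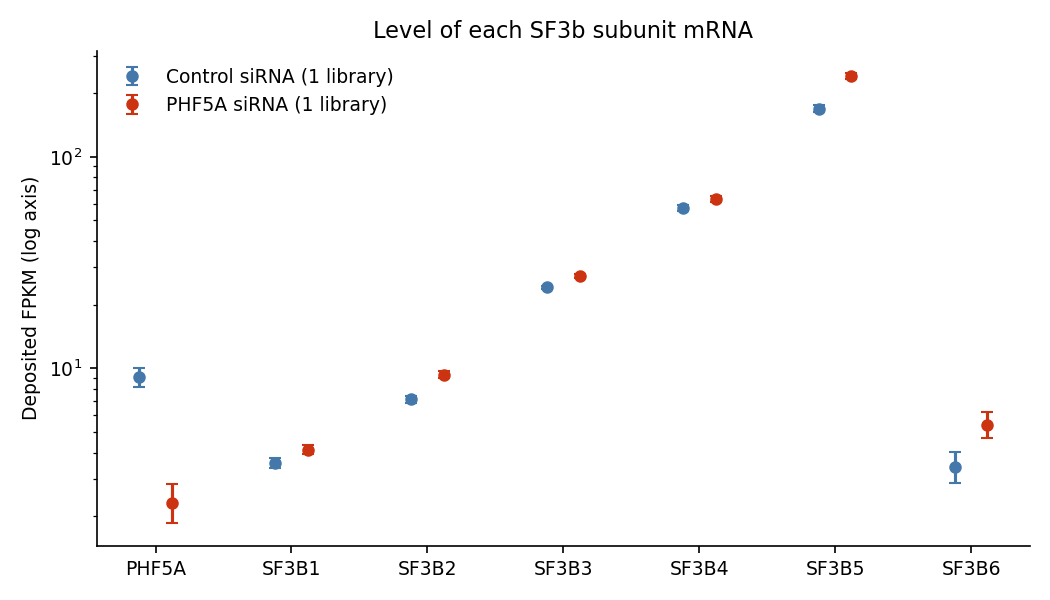
Deposited FPKM (log axis) of the 7 SF3b subunits in the control library and in the PHF5A siRNA library, with 1 library each. Bars are 95% exact Poisson intervals for counting error alone. PHF5A has the higher point in the control library, at 9.07 against 2.31, and the other 6 subunits have it in the knockdown library.

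SF3B1, the ring-shaped scaffold and the subunit most often mutated in cancer, lies on chromosome 2, 197389784 to 197435091, minus strand, with 25 exons. SF3B1 had 1292 counts with the control siRNA and 1465 with the PHF5A siRNA, or 3.56 and 4.14 FPKM. Its CPM ratio was 1.16 (interval 1.08 to 1.25). Among the expressed genes, 73.8% had a lower log2 ratio than its 0.17. SF3B3, the propeller scaffold, lies on chromosome 16, 70523788 to 70577670, plus strand, with 26 exons. SF3B3 had the most counts of the 7, 10444 and 11543, and 24.1 and 27.4 FPKM. Its CPM ratio was 1.13 (1.10 to 1.16). The counting intervals of the 2 large scaffolds overlapped.

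The RNA-contacting partners SF3B2 and SF3B4 did not move by the same amount. SF3B2 (chromosome 11, 66050729 to 66069308, plus strand, 21 exons) had 2685 and 3431 counts, or 7.14 and 9.35 FPKM. Its CPM ratio was 1.31 (interval 1.25 to 1.38). SF3B4 (chromosome 1, 149923317 to 149928344, minus strand, 6 exons) had 4225 and 4543 counts, or 57.2 and 63.1 FPKM. Its CPM ratio of 1.10 (1.06 to 1.15) was the lowest of the 6, and its interval did not overlap that of SF3B2.

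The 2 small subunits SF3B5 and SF3B6 had the highest ratios. SF3B5 (chromosome 6, 144094881 to 144095573, minus strand) is encoded by 1 exon, without introns. It had 3110 and 4323 counts, or 169 and 241 FPKM, with a CPM ratio of 1.43 (interval 1.36 to 1.49). SF3B6 (chromosome 2, 24067584 to 24076443, minus strand, 4 exons) had only 135 and 209 counts, or 3.41 and 5.42 FPKM. Its CPM ratio was 1.59, and the low count leaves a wide interval of 1.27 to 1.99. Of the expressed genes, 89.6% had a lower log2 ratio than SF3B5 (0.51) and 90.5% a lower one than SF3B6 (0.54). PHF5A, also a small protein, had its ratio on the other side of 1. Of the 15 pairs among the 6 subunits, 8 had counting intervals that did not overlap, each of them a pair of SF3B5, SF3B6 or SF3B2 with one of SF3B1, SF3B3 and SF3B4. The 1 remaining pair of that kind, SF3B1 with SF3B2, overlapped.

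**Figure D2:**
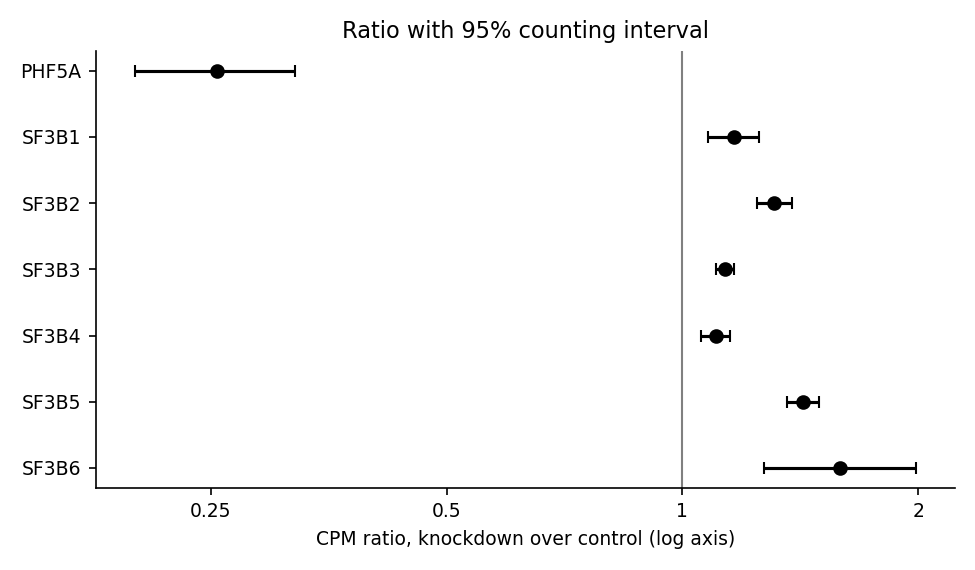
CPM ratio of knockdown to control for each subunit (log axis), with the 95% exact conditional binomial interval for counting error. PHF5A stands at 0.254, SF3B4, SF3B3 and SF3B1 lie between 1.10 and 1.16, and SF3B2, SF3B5 and SF3B6 between 1.31 and 1.59.

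**Figure D3:**
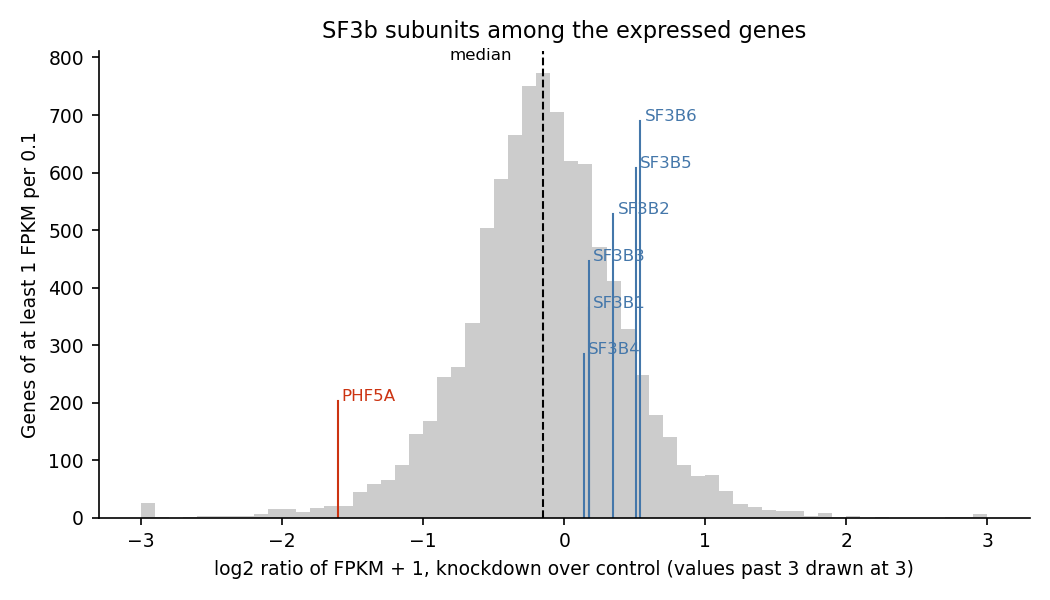
Histogram of the log2 ratio of FPKM + 1 over the 8957 expressed genes, with the median (dashed, -0.15) and the 7 subunits as labelled lines, whose heights only separate the labels. PHF5A lies in the lower tail at -1.61, and the other subunits lie right of the median, from 0.14 to 0.54, inside the bulk of the genes.

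The balance between PHF5A and its partners can be read without any library scaling. PHF5A had 0.580 times the median FPKM of the 6 other subunits in the control library (9.07 against 15.6) and 0.126 times in the knockdown library (2.31 against 18.4). Relative to SF3B4 it was 4.34-fold lower (approximate 95% counting interval 3.43 to 5.48), and relative to SF3B1, its direct neighbour in the complex, 4.57-fold (3.59 to 5.82). Relative to SF3B6 it was 6.24-fold lower (4.55 to 8.56), the largest of the 6 values. The values against SF3B3, SF3B2 and SF3B5 were 4.46, 5.15 and 5.61. In the control library PHF5A had a higher FPKM than SF3B1, SF3B2 and SF3B6, and in the knockdown library it had the lowest of the 7.

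**Figure D4:**
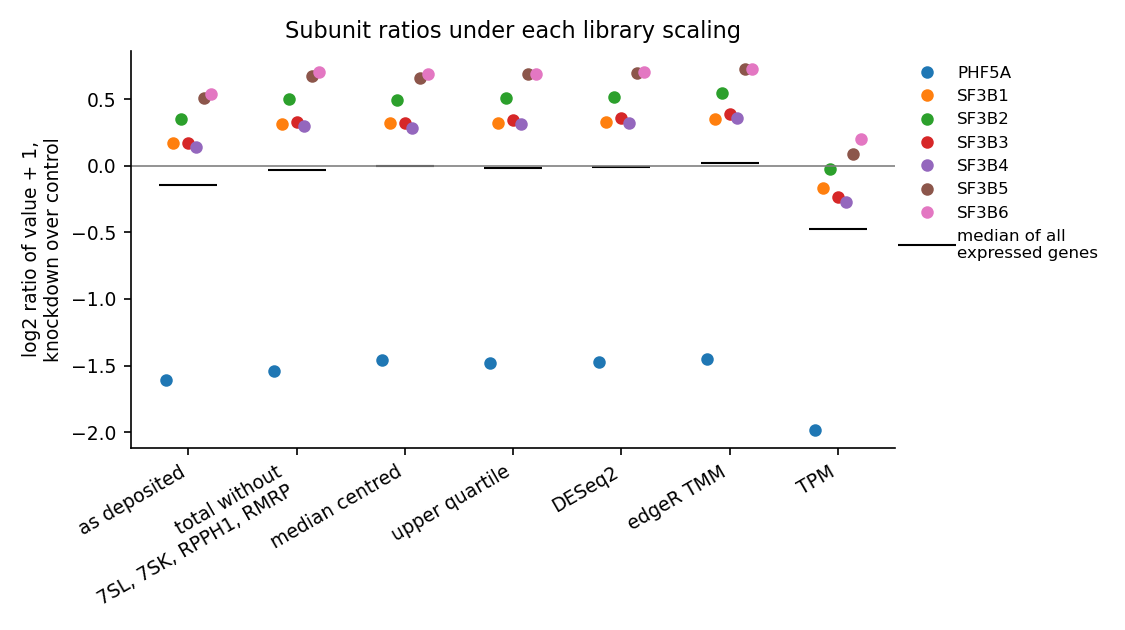
Log2 ratio of each subunit (points) and median of all expressed genes (black bars) under 7 ways of scaling the libraries. PHF5A stays between -1.98 and -1.45, and the other 6 subunits stay above the median of the expressed genes in each, although 4 of them lie below 0 with TPM.

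The subunits are held in SF3b at 1 copy each, while their mRNA levels spanned a 49.5-fold range of FPKM in the control library and 104-fold in the knockdown library. In the knockdown library the lowest value was that of PHF5A, the siRNA target (2.31), with SF3B1 next at 4.14. The control order was SF3B5 (169 FPKM), SF3B4 (57.2), SF3B3 (24.1), PHF5A (9.07), SF3B2 (7.14), SF3B1 (3.56) and SF3B6 (3.41). The last pair did not differ beyond counting error there, and in the knockdown library SF3B6 stood above SF3B1. The order depends in part on the length behind the deposited FPKM. For 6 of the 7 subunits, and for 86.7% of 7113 well-counted genes, that length equals the sum of all distinct annotated exons to within 0.1%, so exons that overlap between isoforms are counted repeatedly. It exceeds the merged exon length 1.49-fold for SF3B1, 1.45-fold for SF3B2, 1.23-fold for PHF5A and not at all for single-exon SF3B5. Per merged exon length the control values were 169 for SF3B5, 70.9 for SF3B4, 31.7 for SF3B3, 11.2 for PHF5A, 10.3 for SF3B2, 5.31 for SF3B1 and 4.25 for SF3B6, a 39.8-fold range. Per longest coding transcript SF3B2 was at 31.1, above PHF5A at 12.7, so the order of these 2 depends on the length used. The range was then 25.6-fold in the control and 74.4-fold in the knockdown library, where PHF5A was again the lowest.

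GC content and level had a similar but not equal order in the control library. SF3B5, SF3B4 and SF3B2 have 56.6%, 55.1% and 55.1% GC in their longest coding transcripts, SF3B3 and PHF5A 48.5% and 47.9%, and SF3B6 and SF3B1, the lowest in level there, 42.5% and 41.0%. SF3B2 is the main exception, below PHF5A and SF3B3 in deposited FPKM with more GC than either. Per longest coding transcript SF3B2 (31.1) was above PHF5A (12.7) but still below SF3B3 (40.5). SF3B6 and SF3B1 also stand in reverse order, though their levels did not differ beyond counting error. Over 7639 expressed protein-coding genes the Spearman correlation of GC content with control FPKM was 0.41, and with knockdown FPKM 0.42. These genes share both libraries, so this is a description without a test. The fifth of genes with the least GC had a median of 1.79 FPKM in the control library, and the fifth with the most had 7.62. With the log2 ratio the correlation was 0.08. The part of GC content in the subunit levels was not tested.

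Genes within 1000 bases of SF3B3, SF3B4 and SF3B6 had ratios of their own. COG4, a Golgi tethering gene 222 bases upstream of SF3B3 on the opposite strand, had 2111 and 2062 counts and a CPM ratio of 1.0 (interval 0.942 to 1.06). MTMR11, 306 bases from SF3B4, had 698 and 87 counts, a ratio of 0.128 (0.101 to 0.160), opposite in direction to SF3B4. Near SF3B6, FAM228B had 16 and 1 counts and TP53I3, a p53 target, had 294 and 161. An antisense RNA that overlaps the 3′ end of SF3B2 had 0 counts in both libraries and so has no ratio. Each of the 4 neighbours with counts had a CPM ratio whose interval did not overlap that of its subunit.

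The promoter table from RefSeq (GRCh38.p14) matched SF3B1, SF3B2, SF3B4, SF3B5 and SF3B6, with 2 entries for SF3B1. All 5 genes hold the letters CGGAAG, the core that ETS factors bind, on 1 of the strands (CTTCCG when read on the other) within 250 bases before an annotated start. By entries that is 5 of 6, since 1 of the SF3B1 entries lacks it. The same holds for 16.5% of all 35116 promoter entries and for 26.8% of the 8314 entries of expressed protein-coding genes. The motif was chosen after the promoters had been read, so the count is a description, and a match is not a binding site. The match nearest the start is shown for each with up to 12 bases on both sides, the motif in capitals, to let the shared letters be compared.
SF3B1: ggcggcgacgagCGGAAGttcttgggagcg
SF3B2: ggctggccccagCTTCCGggttggtc
SF3B4: ccgtcttcgcccCGGAAGtggaagtcgtgc
SF3B5: gcggacctggagCTTCCGcgcggtggcttc
SF3B6: ccgctgtaacagCTTCCGgcgggtcctgga

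In all 5 the match shown begins 14 to 25 bases before the start annotated by RefSeq. It is the nearest of up to 3 matches per gene. The share of other promoters with a match this near the start was not counted, so the position is not a trait of these genes. The windows are at chr2:197435031-197435060 for SF3B1, chr11:66052338-66052363 for SF3B2, chr1:149927811-149927840 for SF3B4, chr6:144095574-144095603 for SF3B5 and chr2:24076328-24076357 for SF3B6. All are on the minus strand but SF3B2, which is on the plus strand. Only the SF3B5 window lies outside the gene range given above. The other windows lie inside theirs, so those RefSeq starts differ from the ends of the ranges. SF3B5 and SF3B6 have 3 matches each, SF3B2 and SF3B4 have 2, and SF3B1 has 1.

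Partners of SF3b in the U2 snRNP were described by the same measure. In SF3a, the trimer that joins SF3b to U2, SF3A2 had 46.4 and 97.6 FPKM, a log2 ratio of 1.06, while SF3A1 had 0.30 and SF3A3 -0.05. SF3A2 was 1 of the 2.53% of expressed genes at least 2-fold higher, but with TPM rescaling it was not. The 9 U2 core proteins had log2 ratios from 0.07 to 0.47, with a median of 0.27. SNRPE, SNRPA1 and SNRPB2 reached 1 FPKM in the knockdown library alone, which favours a high ratio, and the median of the 6 that reached it in both was 0.22. The highest were SNRPE (0.47), SNRPB (0.43), SNRPA1 (0.40) and SNRPD3 (0.34). Sm proteins such as SNRPE and SNRPB are shared with the other spliceosomal snRNPs. Of the helicases that associate with SF3b, DDX42 had -0.08 and DDX46 had 200 and 259 counts and did not reach 1 FPKM. The 11 branch point and U2 recruitment factors had a median of 0.00, with 6 above 0 and 5 below. Of the 8 that were expressed, SMNDC1 and HTATSF1 reached 1 FPKM in the knockdown library alone. The 6 that reached it in both libraries had a median of 0.15. At least 2-fold higher or lower on this scale were 0 of the 8, beside 8.73% of all expressed genes. By CPM ratio SMNDC1 (2.17, interval 1.69 to 2.80) and HTATSF1 (2.09, interval 1.57 to 2.81) were past 2-fold. SF1, which binds the branch point before U2 arrives, had 0.63, SMNDC1 0.49, PUF60 0.47 and HTATSF1, a factor that binds the U2 snRNP, 0.44. U2AF2, the subunit of U2AF that binds the polypyrimidine tract, had 6203 and 4567 counts and a log2 ratio of -0.39, with a CPM ratio of 0.755 (interval 0.726 to 0.784). CHERP and SUGP1 both had -0.06. U2AF1 had 29 and 4 counts and is uncertain, because its copy U2AF1L5 has a row of its own, with 3 counts in each library.

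Other complexes use SF3b, its parts or its relatives. Of 8 proteins of the minor spliceosome's U11/U12 particle, 5 were expressed. The median was -0.05 over all 8 and -0.11 over the 3 that reached 1 FPKM in both libraries, while SNRNP48 and ZCRB1 reached it in the knockdown library alone. SNRNP48 had 109 and 321 counts and a log2 ratio of 0.83, under 2-fold on this scale. Its CPM ratio was 3.02 (interval 2.42 to 3.79), and it passed 2-fold with a pseudocount of 0.1 or 0.5, from CPM, and with totals that leave out the small RNAs. ZMAT5 had 0.35, ZCRB1 0.26 and PDCD7 -0.31. The 19 SAGA genes had a median of -0.06. Beside 2.53% of all expressed genes at least 2-fold higher and 6.20% lower, 0 of the 14 expressed SAGA genes were lower and 1 was higher. That gene was TAF10 at 1.17, beside TADA3 at 0.59, SGF29 at 0.52 and the acetyltransferase KAT2A at -0.60. With TPM rescaling TAF10 too was under 2-fold. The PAF1 complex, an elongation factor reported to bind PHF5A, had 3 expressed members, PAF1 (-0.51), RTF1 (0.25) and CTR9 (0.22), of which RTF1 reached 1 FPKM in the knockdown library alone. The structural relatives of SF3B3, DDB1 of the damage-binding ubiquitin ligase and CPSF1 of the cleavage factor, had -0.33 and -0.02.

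**Figure D5:**
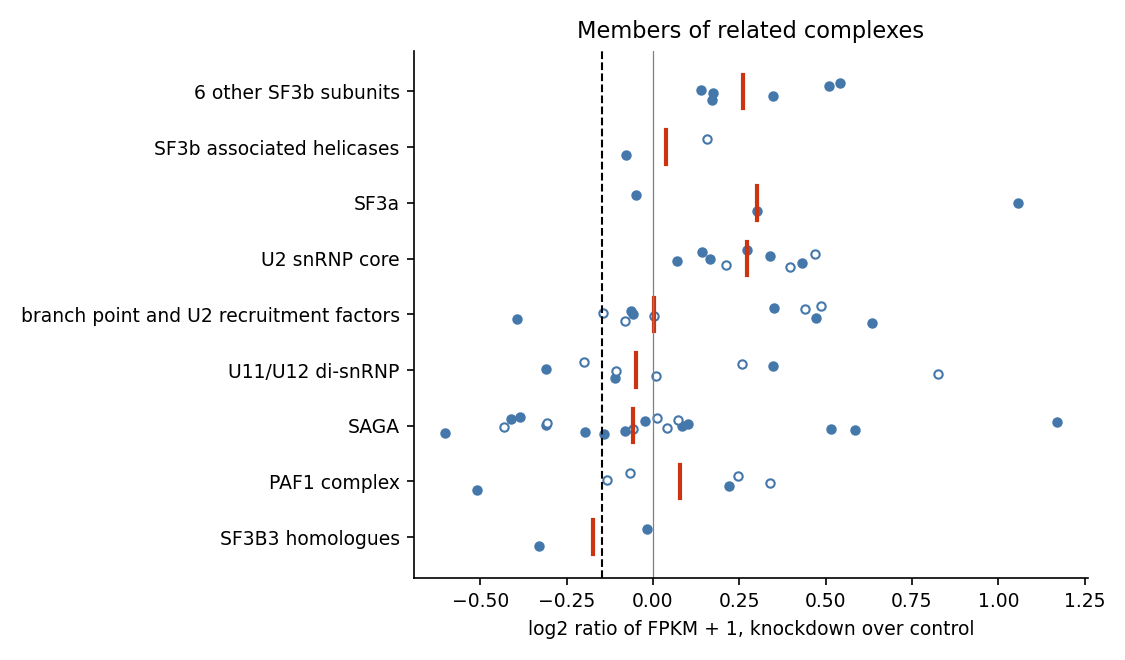
Log2 ratio of FPKM + 1 for each member of the related complexes (filled points for at least 1 FPKM in both libraries, open points for the others), with medians over all members (red) and the median of the expressed genes (dashed, -0.15). The 6 other SF3b subunits, the U2 core proteins, SF3a and the SF3b associated helicases lie wholly to the right of the dashed line. So do 10 of the 11 branch point and U2 recruitment factors, and SAGA lies on both sides of it. Adding 1 FPKM draws the ratios of low genes toward 0, which is right of the line, so the side of an open point says little. U2AF1, for example, lies at -0.08 with a CPM ratio of 0.141 (interval 0.0361 to 0.403).

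Among 19629 other protein-coding genes, the 5 whose pair of values lay closest to that of PHF5A were KLHDC8B, APOBEC3B, GM2A, FSD1 and DHX8. Closeness is the Euclidean distance of log2(FPKM + 1) over the 2 libraries, from 0.048 for KLHDC8B to 0.119 for DHX8. DHX8, the helicase that releases spliced mRNA from the spliceosome, had 2439 and 635 counts, a CPM ratio of 0.267 (interval 0.244 to 0.291). APOBEC3B, a cytidine deaminase, had 751 and 186 counts and a ratio of 0.254 (0.215 to 0.299). With 2 libraries this likeness says no more than that the levels match.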

How the data were processed

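RNA was extracted with Trizol and made into stranded total RNA libraries, per the labels' protocols. HISAT2 2.0.4 and Cuffdiff with hg38 (GRCh38) are named in the submitters' processing notes. Which annotation was used, and how strand and multiply matching reads were counted, is not stated in these sources. The deposited table holds whole-number counts and FPKM per gene, per the file headers. The entry of 1 gene, broken over 2 lines, was left out.

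The main measure was the log2 ratio of deposited FPKM with a pseudocount of 1, over genes that reached 1 FPKM in either library, with a 2-fold threshold. CPM ratios carry exact conditional binomial intervals, and levels exact Poisson ones. Exons, lengths and GC content came from GENCODE release 29, matching 50110 rows. The named genes were the 7 subunits, up to 4 expressed members per list by absolute log2 ratio, and the 5 genes nearest PHF5A. Neighbours within 1000 bases, GC content, merged lengths and the promoter motif were added later (1 neighbour and 1 sequence comparison are not reported here), as were remarks on other members of the lists. The members and lists were chosen with earlier results of these data known. Alternatives used other pseudocounts, filters, thresholds and scalings, among them edgeR 4.0.16 and DESeq2 1.42.0 factors, without any test. The procedure was tested on simulated data. Python 3.11.15, scipy 1.17.1 and biopython 1.88 were used.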

Additional observations from a re-analysis of the deposited data

How the results depend on the processing

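No paired analysis was possible because each group had 1 library. PHF5A stayed at least 2-fold lower in every alternative tried, with log2 ratios from -1.98 (TPM rescaling) to -1.45 (edgeR TMM), and -1.97 from CPM with a prior of 0.5. The number of other subunits past the threshold was 0 in each alternative at 2-fold, and 0 at 1.5-fold on the deposited FPKM + 1 scale. Other scalings put SF3B5 and SF3B6 past 1.5-fold. These were median centring (0.66 and 0.69), upper-quartile scaling (both 0.69) and DESeq2 factors (0.69 and 0.70). The same held with edgeR TMM (both 0.73) and with totals that leave out the small RNAs (0.67 and 0.70). SF3B6 alone was past 1.5-fold with a pseudocount of 0.1 (0.65) or 0.5 (0.60) and from CPM (0.66). The median log2 ratio of the other subunits was 0.26 as deposited. It was 0.30 with a pseudocount of 0.1, 0.30 from CPM with a prior of 0.5, 0.41 after median centring, 0.43 after upper-quartile scaling, 0.47 with edgeR TMM, 0.44 with DESeq2 factors, 0.42 with totals that leave out 7SL, 7SK, RPPH1 and RMRP, 0.35 over the 5 subunits of at least 5 FPKM and -0.10 with TPM. SF3B1 (-0.17), SF3B2 (-0.03), SF3B3 (-0.23) and SF3B4 (-0.28) were below 0 with TPM, where the median of the expressed genes was -0.47. The level of PHF5A relative to the other subunits was 0.580 and 0.126 of their median. Against their mean it was 0.206 and 0.0395, and against SF3B1 alone 2.55 and 0.557, so it was lower in the knockdown library by each of these. Of 47 main results under alternatives, 15 moved, as did 31 of 77 ratios of single subunits. Part of these could not move. Other filters and the 1.5-fold threshold leave the ratio of a single gene as it was. TPM rescaling leaves the level of PHF5A relative to the other subunits as it was. The shares that stayed are therefore no measure of robustness. A ratio or level was called moved when it left the counting interval around the main value, and a count when it differed by over 1.5 times. Of 208 list counts under alternatives, 11 moved, but many of these counts were 0 throughout. Lengths from merged exons were added after the data were seen and gave -1.66 for PHF5A. SF3B6, with 135 and 209 counts, and PHF5A are the subunits limited most by depth.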
